A study of Homo sapiens with 8 samples.

Results

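The genes followed here are 8 known targets of the miR-15/16 family of microRNAs: BCL2, CCND1, CCND3, CCNE1, CDK6, WEE1, CHEK1 and CARD10. They are grouped under cell-cycle entry, although BCL2 and CARD10 have other roles, given below. The rule for choosing the 8 names the genes and uses no measured value, but it was written with earlier results of these data known. All 8 were found among the 17179 gene symbols with a read, each as a single gene and transcript feature, and all 8 were among the 13306 genes abundant enough to be tested. The study measured ribosome footprints, the stretches of mRNA that a ribosome shields from nuclease, in 293T cells. The line derives from human embryonic kidney and makes the large T antigen of SV40, a viral protein that binds RB1 and p53. There were 4 groups of 2 libraries, in a pair of arms: a non-cleaving shRNA named shNBD1 against a control for shRNA, and miRNA inhibitors against a control for inhibitors. All groups were 293T cells in the same medium. The labels used here do not say which miRNAs the inhibitors were directed at, how hairpin or inhibitors were delivered, or at what dose and time. They also do not spell out NBD1 or say whether replicates were separate cultures, so the p-values speak only of how far these libraries spread, and that spread may be technical.

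A microRNA guides Argonaute proteins to mRNAs that pair with its seed, the bases near its 5′ end, and the bound mRNA is translated less and degraded sooner. The miR-15/16 family is known as a brake on proliferation: the cluster that holds MIR15A and MIR16-1 is often deleted in chronic lymphocytic leukaemia, where the survival gene BCL2 is its best known target, and the D- and E-type cyclins with their kinases are classic targets as well. Cyclins D1 and D3 with CDK6 phosphorylate RB1 to open the way to S phase, cyclin E1 with CDK2 completes that step, and the kinases WEE1 and CHEK1 restrain CDK1 and CDK2 when DNA is unreplicated or damaged. CARD10 is a scaffold that links receptors to NF-kB through BCL10 and MALT1.

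The mature sequences of the family are shown because the 8 genes were chosen as its known targets. They are given 5′ to 3′ as RefSeq lists them for GRCh38.p14, with the seed (bases 2 to 8) in capitals.
miR-15a-5p: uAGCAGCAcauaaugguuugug
miR-15b-5p: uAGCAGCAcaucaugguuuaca
miR-16-5p: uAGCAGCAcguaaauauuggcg
miR-195-5p: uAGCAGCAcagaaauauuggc
miR-424-5p: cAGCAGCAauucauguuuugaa
miR-497-5p: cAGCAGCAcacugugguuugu
All 6 carry the same seed, and they differ after it: miR-15a-5p and miR-16-5p have the same base at 8 of the 14 positions that follow the seed. Among 2370 mature miRNA names in RefSeq, 7 (0.295%) hold this seed, the other being miR-6838-5p. The matching letters in a target, read 5′ to 3′ in DNA, are TGCTGCT. miR-15a-5p comes from chr13:50049167-50049188 on the minus strand and miR-15b-5p from chr3:160404607-160404628 on the plus strand, while miR-16-5p comes from a copy next to each, at chr13:50049027-50049048 (minus) and chr3:160404754-160404775 (plus). Sequences of the target sites in the 8 mRNAs were not used here.

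Total counts per library ran from 11218980 to 19854218, and values are given as CPM, the count scaled to a common library total, on library sizes scaled by the trimmed mean of M values (TMM). Replicates lay closer in the shRNA arm than in the inhibitor arm, by a margin that depends on the measure. The chi-square per degree of freedom between replicates was 1.45 for shRNA control and 2.88 for shNBD1 libraries. It was 15.1 for inhibitor control and 22.3 for inhibitor libraries. On the log2 scale the gap between the arms was much smaller. The standard deviation between replicates on that scale, over all genes, was 0.187 for each shRNA arm group. It was 0.215 for inhibitor control and 0.246 for inhibitor libraries. Inhibitor replicate 2 was the shallowest library, and 11.3% of its counts came from 2 features, ZNF354B and ST8SIA1, which took 5.99% to 9.99% elsewhere. Of 7 genes listed as traits of 293T, INA (43.4 to 70.1 CPM over all libraries), GATA3 (17.8 to 43.9), SOX11 (8.04 to 49.1) and LIN28B (6.71 to 19.9) were present. PAX2 (1.89 to 3.44) and NEFM (0.924 to 1.66) were low, and NEFL had no read. Of 12 markers of other cell types, 7 were too low to test and PTPRC reached at most 0.102 CPM, while CD68, COL1A1 and ACTA2 were clearly present. Without ACTA2 the sum of the 12 ran from 78.09 to 78.41 CPM among shRNA control libraries and from 80.78 to 84.85 among shNBD1 libraries, and from 38.85 to 61.25 among inhibitor control libraries and from 54.88 to 78.2 among inhibitor libraries. Their part in the results was not tested.

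The 8 genes did not move as a block with shNBD1. CARD10 and CDK6 rose, BCL2 and CCNE1 fell, and WEE1, CHEK1, CCND1 and CCND3 did not pass the test. That is 4 of 8 called, where 18.3% of all genes tested were called (9.18% higher, 9.15% lower), at an adjusted p under 0.05 in edgeR's quasi-likelihood test. The median log2 fold change of the 8 was -0.19, and that of all genes was 0.00. With the inhibitors none of the 8 was called, where 0.12% of all genes were, but 7 of the 8 had a log2 fold change above 0, as 51.5% of all genes did, and the median was 0.27 against 0.01 over all genes. At an unadjusted p under 0.05 there were 4 of 8 (CCND1, CDK6, WEE1 and CARD10), all higher, where 8.49% of all genes were higher at that level. On the 4 libraries of the inhibitor arm alone 2 of the 8 were at that level, as were 1161 of all 13306 genes in either direction. DESeq2 on all 8 libraries called none of the 7 genes for which it gave an adjusted p with the inhibitors (not BCL2). For the difference between the treatment effects edgeR called none of the 8, where it called 7.44% of all genes, and DESeq2 called none. At an unadjusted p under 0.05 there were 3 of 8 (BCL2, WEE1 and CHEK1), against 24.5% of all genes. Between the controls 5 of 8 were called, with BCL2, WEE1, CCNE1 and CDK6 higher in the shRNA control and CCND1 lower, where 27.1% of all genes were called (13.5% higher, 13.6% lower).

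**Figure D1:**
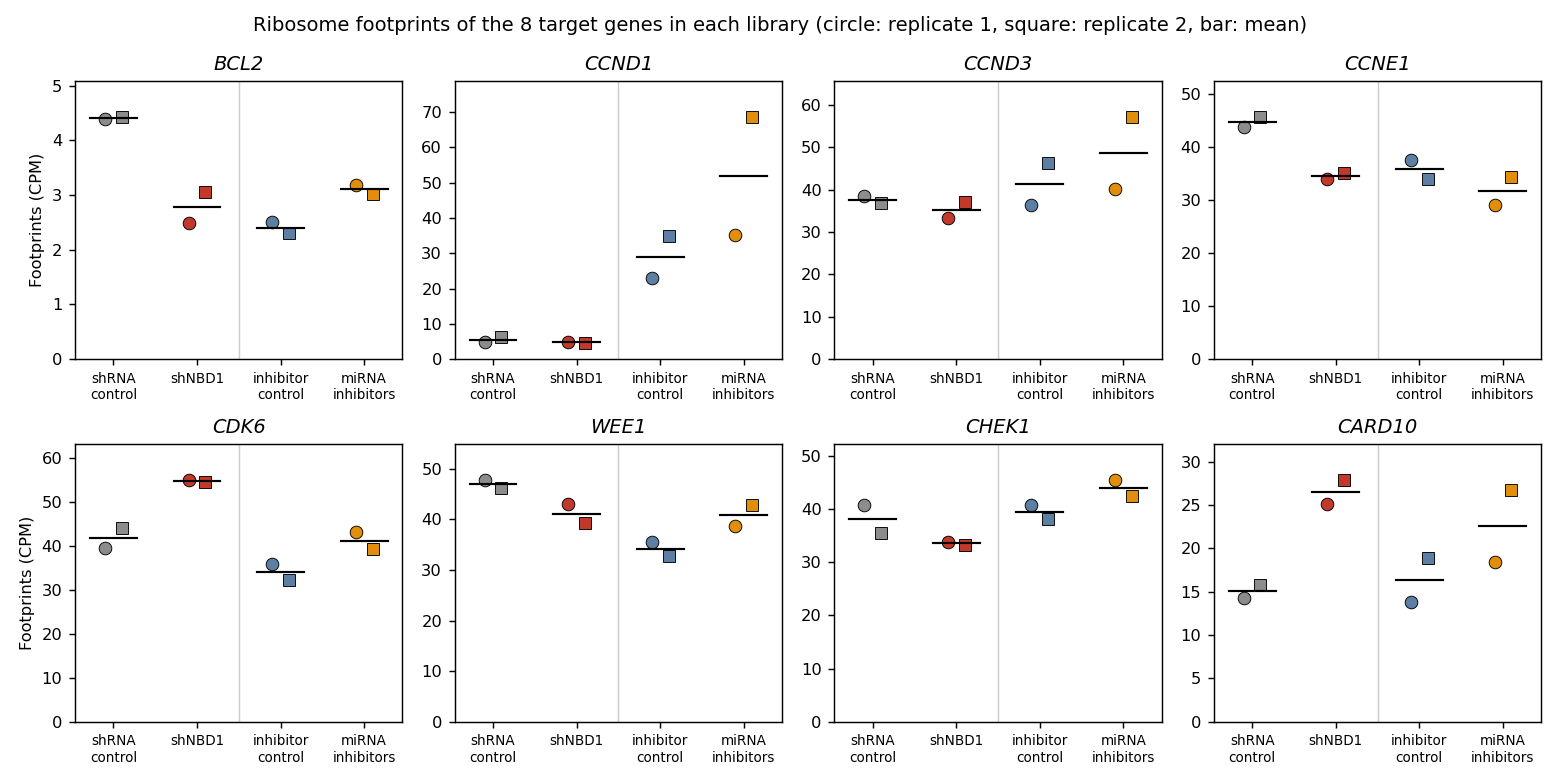
Footprints of each of the 8 genes in CPM (vertical axis, from 0, on a scale of its own per gene) in the 4 groups; circles are replicate 1, squares replicate 2 and bars the mean of 2 libraries. CCND1 lies between 4.63 and 6.22 CPM in the 4 libraries of the shRNA arm and between 23.1 and 68.55 in the inhibitor arm.

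CCND1, cyclin D1 (ENSG00000110092, chromosome 11, 69641156 to 69654474, GRCh38.p14), is the regulatory subunit of CDK4 and CDK6 and couples growth signals to RB1. The shRNA control libraries held 4.71 and 6.22 CPM and the shNBD1 libraries 4.84 and 4.63, in order of replicate here and for all 8 genes. The inhibitor control libraries held 23.1 and 34.81 CPM and the inhibitor libraries 35.19 and 68.55. Every library of the inhibitor arm was above every library of the shRNA arm. Between the controls the log2 fold change, shRNA over inhibitor control, was -2.42 ± 0.33 (SE), which is 5.34-fold (adjusted p = 0.000771, edgeR). It passed under all 19 alternatives, with a log2 fold change from -2.69 to -2.09. Culture, handling and the kind of control cannot be told apart in this comparison, since each arm has a control of its own. Among the marker genes SOX11 was lower in the shRNA control too (16.7 to 17.4 CPM, against 43.2 to 49.1 in the inhibitor control), as was ACTA2 (291 to 320 against 502 to 532), while GATA3 (36.7 to 37.6 against 21.6 to 24.6) and CD68 (38 to 38.5 against 11.7 to 15.1) were higher there.

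Within the arms CCND1 was not called. With shNBD1 its log2 fold change was -0.19 ± 0.42 (adjusted p = 0.782, edgeR; 95% interval -1.13 to 0.74), at 68 to 76 counts a library. With the inhibitors it was 0.82 ± 0.27 (adjusted p = 0.185), and the groups did not overlap, but inhibitor control replicate 2 (34.81 CPM) and inhibitor replicate 1 (35.19 CPM) were nearly level. Single libraries decided this value. It was 0.27 without inhibitor replicate 2, 0.55 without inhibitor control replicate 1, 1.14 without inhibitor control replicate 2 (adjusted p = 0.0493) and 1.24 without inhibitor replicate 1 (adjusted p = 0.00661, edgeR), and 0.01 without both inhibitor control replicate 1 and inhibitor replicate 2. In both groups of that arm the replicate 2 library was the higher, by 0.59 in the control and 0.96 with the inhibitors on the log2 scale.

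CCND3, cyclin D3 (ENSG00000112576, chromosome 6, 41934933 to 42050035), binds the same kinases. The shRNA control libraries held 38.51 and 36.75 CPM and the shNBD1 libraries 33.42 and 37.02. The inhibitor control libraries held 36.4 and 46.35 CPM and the inhibitor libraries 40.07 and 57.11. The groups overlapped in each arm and between the controls. The log2 fold change was -0.10 ± 0.16 with shNBD1 (adjusted p = 0.72, edgeR; 95% interval -0.46 to 0.26) and 0.22 ± 0.16 with the inhibitors (adjusted p = 0.503; -0.13 to 0.57). The latter was -0.06 without inhibitor replicate 2, 0.05 without inhibitor control replicate 1, 0.40 without inhibitor control replicate 2 and 0.47 without inhibitor replicate 1. Between the controls, where CCND1 differed, CCND3 was at -0.14 ± 0.16 (adjusted p = 0.554; -0.49 to 0.21), and at -0.30 without both inhibitor control replicate 1 and inhibitor replicate 2.

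CDK6 (ENSG00000105810, chromosome 7, 92604921 to 92836573), the kinase that these cyclins activate, rose with shNBD1. It went from 39.58 and 43.95 CPM to 54.97 and 54.57 CPM, a log2 fold change of 0.39 ± 0.09 or 1.31-fold (adjusted p = 0.015, edgeR). Both shNBD1 libraries were above all 6 others. In the inhibitor arm the control libraries held 35.83 and 32.21 CPM and the inhibitor libraries 43.07 and 39.24, with no overlap (0.28 ± 0.09, adjusted p = 0.194), and at 0.42 without both inhibitor control replicate 1 and inhibitor replicate 2. shNBD1 minus inhibitors, the treatment effects differed by 0.11 ± 0.13 (adjusted p = 0.648, 95% interval -0.17 to 0.40). The shRNA control was above the inhibitor control by 0.29 ± 0.09 (adjusted p = 0.0386). That last call was lost in 9 of 19 alternatives, among them DESeq2 (adjusted p = 0.102) and fits without either shRNA control library (0.0858 and 0.26), without either shNBD1 library (0.0687 and 0.0768) or without inhibitor control replicate 2 (0.159).

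CCNE1, cyclin E1 (ENSG00000105173, chromosome 19, 29811991 to 29824312), which activates CDK2 at the start of S phase, fell with shNBD1. It went from 43.76 and 45.59 CPM to 33.92 and 35.04 CPM, which is -0.37 ± 0.10 on the log2 scale or 1.29-fold lower (adjusted p = 0.0272, edgeR). The inhibitor control held 37.62 and 34 CPM and the inhibitors 29 and 34.32, which overlap (-0.19 ± 0.10, adjusted p = 0.38, and from -0.06 without inhibitor replicate 1 to -0.31 without inhibitor replicate 2). CCNE1 was the only one of the 8 with a value below 0 with the inhibitors. Its log2 fold change between the controls was 0.32 ± 0.10 (adjusted p = 0.0351), a call lost in 8 of 19 alternatives, among them DESeq2 (0.0826), upper-quartile scaling (0.0623) and fits without shRNA control replicate 1 (0.136) or 2 (0.188), without shNBD1 replicate 1 (0.0623) or 2 (0.0671) and without inhibitor control replicate 2 (0.136).

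WEE1 and CHEK1 are checkpoint kinases: WEE1 (ENSG00000166483, chromosome 11, 9573670 to 9589985) adds the inhibitory phosphate to CDK1 and CDK2, and CHEK1 (ENSG00000149554, chromosome 11, 125625136 to 125681124) is activated by ATR and removes CDC25 phosphatases. For WEE1 the shRNA control libraries held 47.81 and 46.16 CPM and the shNBD1 libraries 43.02 and 39.26, while the inhibitor control libraries held 35.53 and 32.72 and the inhibitor libraries 38.76 and 42.83. For CHEK1 the same groups held 40.71 and 35.44, 33.85 and 33.21, 40.69 and 38.03, and 45.44 and 42.46 CPM. For each of these kinases both shNBD1 libraries lay below both of their controls and both inhibitor libraries above both of theirs. No overlap is common here, since 69% of all genes tested had groups that did not overlap with shNBD1 and 40.8% with the inhibitors. The log2 fold changes with shNBD1 were -0.19 ± 0.09 for WEE1 (adjusted p = 0.166, edgeR) and -0.19 ± 0.09 for CHEK1 (adjusted p = 0.197), the latter from -0.08 without shRNA control replicate 1 to -0.28 without replicate 2. With the inhibitors they were 0.25 ± 0.09 (adjusted p = 0.217) and 0.16 ± 0.09 (adjusted p = 0.398).

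The treatment effects differed by -0.45 ± 0.13 for WEE1 (unadjusted p = 0.00555, adjusted p = 0.0614, edgeR) and -0.35 ± 0.13 for CHEK1 (0.0237 and 0.135), neither past the threshold. For WEE1 it passed without inhibitor control replicate 1 (adjusted p = 0.0475) and without inhibitor replicate 1 (0.0411), fits in which 1 inhibitor arm group has a single library. WEE1 was higher in the shRNA control than in the inhibitor control by 0.46 ± 0.09 (adjusted p = 0.00469, edgeR), which was lost only without shRNA control replicate 1 (0.0621) among 19 alternatives. Between the controls CHEK1 was at -0.05 ± 0.09 (adjusted p = 0.746). WEE1 with shNBD1 passed on the 4 libraries of the shRNA arm alone (-0.19, adjusted p = 0.0326, edgeR), where 5281 of all 13306 genes were called.

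BCL2 (ENSG00000171791, chromosome 18, 63123346 to 63320090), which keeps mitochondria from releasing the signals for apoptosis, was thinly covered, with 32 to 66 counts a library and a counting error of 12.3% to 17.7%. It fell with shNBD1 from 4.38 and 4.42 CPM to 2.49 and 3.06 CPM, which is -0.66 ± 0.20 on the log2 scale or 1.58-fold lower (adjusted p = 0.0431, edgeR). DESeq2 did not call it (adjusted p = 0.216). With the inhibitors it stood at 3.19 and 3.03 CPM against 2.50 and 2.30 in their control (0.38 ± 0.21, adjusted p = 0.386), with no overlap. The shRNA control was above the inhibitor control by 0.87 ± 0.19 (adjusted p = 0.0091), which was lost with DESeq2 (0.0614) and without shRNA control replicate 1 (0.0706) or replicate 2 (0.062). The treatment effects differed by -1.04 ± 0.29, with an adjusted p of 0.0551 in edgeR, beside -1.02 ± 0.50 for CCND1 (adjusted p = 0.241).

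CARD10 (ENSG00000100065, chromosome 22, 37490362 to 37519415) had the largest change of the 8 with shNBD1. It rose from 14.28 and 15.8 CPM to 25.1 and 27.9 CPM, which is 0.82 ± 0.19 on the log2 scale or 1.77-fold (adjusted p = 0.0136, edgeR). In the inhibitor arm the control stood at 13.85 and 18.89 CPM and the inhibitors at 18.44 and 26.76, and the groups overlapped (0.45 ± 0.18, adjusted p = 0.269). This value was 0.16 without inhibitor replicate 2, 0.24 without inhibitor control replicate 1, 0.68 without inhibitor control replicate 2, 0.71 without inhibitor replicate 1 (adjusted p = 0.0352, edgeR) and -0.04 without both inhibitor control replicate 1 and inhibitor replicate 2. As for CCND1 and CCND3, the replicate 2 library was the higher in both groups of the arm. The treatment effects differed by 0.38 ± 0.26, which did not pass (adjusted p = 0.424), and by 0.86 without both of those libraries. Between the controls CARD10 was at -0.13 ± 0.19 (adjusted p = 0.653), and at -0.34 without both of them.

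The 4 calls with shNBD1 kept their direction under every alternative that could be run, but each was lost when any single library of that arm was left out, where 1 group has a single library that is assumed to vary like the others. Without shRNA control replicate 1, shRNA control replicate 2, shNBD1 replicate 1 and shNBD1 replicate 2 the adjusted p-values in edgeR were 0.14, 0.0754, 0.0543 and 0.12 for CARD10, 0.175, 0.057, 0.0861 and 0.109 for CDK6, 0.135, 0.168, 0.142 and 0.142 for CCNE1 and 0.195, 0.169, 0.216 and 0.117 for BCL2. The log2 fold changes moved little, from 0.74 to 0.89 for CARD10, 0.32 to 0.47 for CDK6, -0.40 to -0.34 for CCNE1 and -0.82 to -0.52 for BCL2 over all alternatives. On the 4 libraries of the shRNA arm alone these 4 genes were called too, where 5281 of all 13306 genes were. The adjusted p-values in that edgeR fit were 3.11e-07 for CARD10, 4.61e-05 for CDK6, 0.000198 for CCNE1 and 0.0136 for BCL2.

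**Figure D2:**
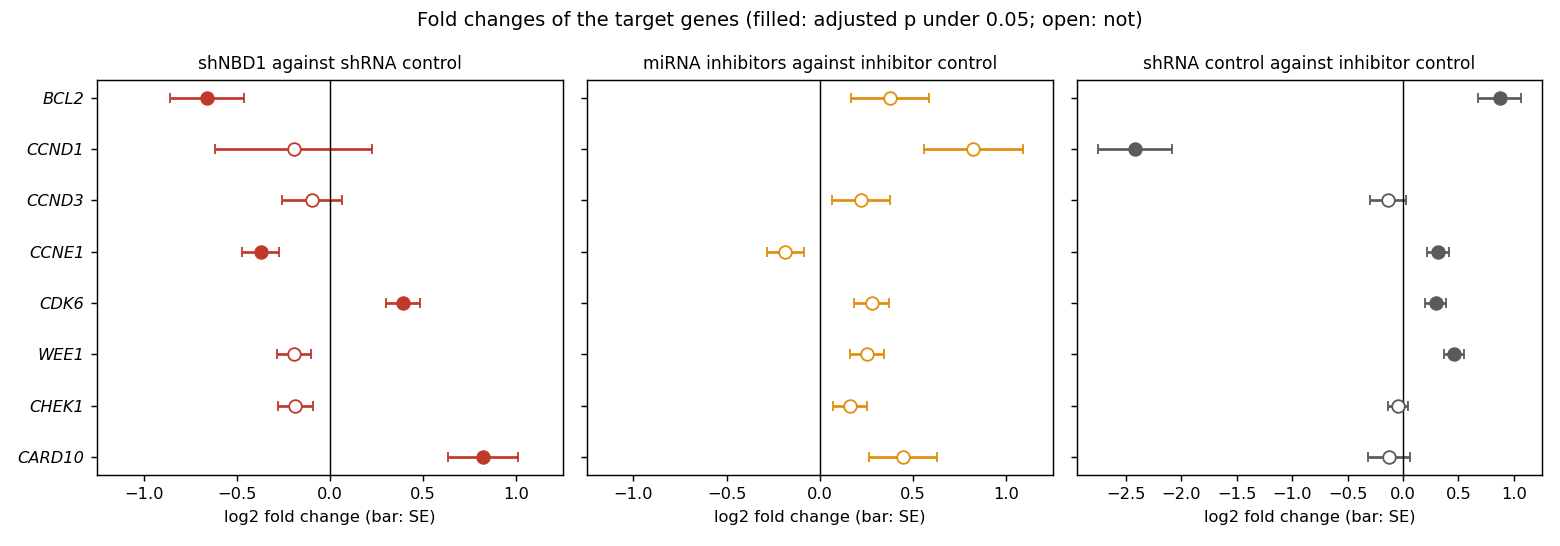
Log2 fold change (horizontal axis) with its SE for the 8 genes in 3 comparisons; filled points passed an adjusted p under 0.05 in edgeR and open points did not, and the right panel has a wider axis. With shNBD1 the points spread from -0.66 to 0.82, while with the inhibitors 7 of 8 lie above 0 and none is filled.

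**Figure D3:**
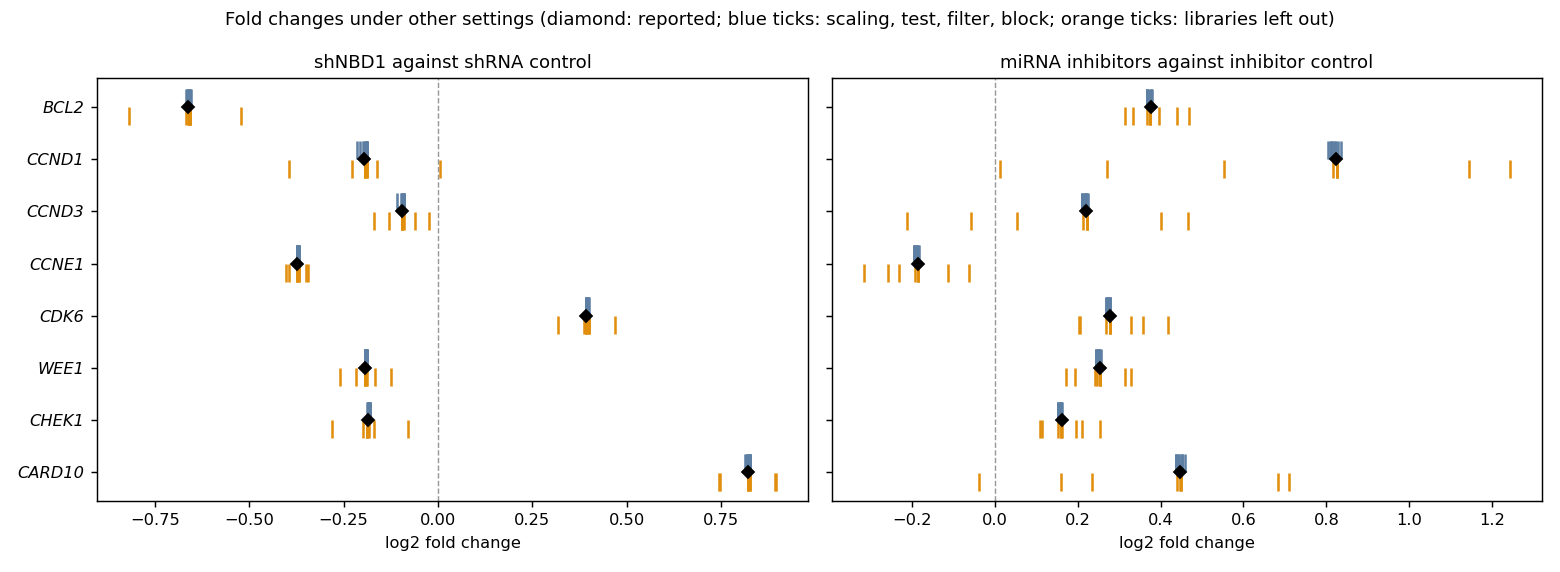
Log2 fold change (horizontal axis) of the 8 genes as reported (diamonds), under other scalings, tests, filters and replicate blocks (blue ticks) and with libraries left out (orange ticks), on an axis of its own for each comparison. With the inhibitors the values of CCND1 run from 0.01 to 1.24 and those of CARD10 from -0.04 to 0.71, both set by the libraries left out. The lower end of each comes from leaving out a pair of libraries chosen after seeing the data.

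By the likeness of their levels over the 8 libraries (Pearson's r of log2 CPM, a description over libraries that share groups and arms), the gene nearest to CCND1 was TIGD1 (r = 0.993), and 4.75% of the 10908 other genes compared had an r over 0.9 with CCND1. The nearest to CARD10 was SLC2A1 (r = 0.996, 2.09% over 0.9). For the other 5 genes that averaged 50 counts or more a library these were GTF2F1 for CCND3 (0.986), LONRF2 for CCNE1 (0.973), FJX1 for CDK6 (0.978), KDM8 for WEE1 (0.984) and CD46 for CHEK1 (0.966), with under 1% of genes over 0.9 for each. BCL2 was too low for this.

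The partners of these genes in the step from G1 to S phase were counted from a list of 26 cyclins, kinases, inhibitors, pocket proteins and E2F factors, 25 of them tested. Where list counts below drop without a library of the shRNA arm, the count over all genes dropped too. Library values of partner genes are given from the lower to the higher of each group. With shNBD1 2 rose and 7 fell, 36% called against 18.3% of all genes, with a median log2 fold change of -0.01. CCND2, cyclin D2, fell from 75.55 and 76.56 CPM to 41.67 and 41.92 CPM, which is -0.86 ± 0.09 on the log2 scale (adjusted p = 0.000204, edgeR), so of the 3 D-type cyclins only this one was called. CCNE2, cyclin E2, fell by 0.61 ± 0.09 beside CCNE1 (adjusted p = 0.00223), and CCNA2, the cyclin of S phase that takes over CDK2, by 0.39 ± 0.08 (adjusted p = 0.00825). CDK4, the paralog of CDK6, rose by 0.24 ± 0.07 (adjusted p = 0.0304) and CDKN1B, the p27 inhibitor of CDK2, by 0.40 ± 0.11 (adjusted p = 0.033). The calls of CCNA2, CDK4 and CDKN1B were lost without any single library of the arm, those of CDK4 (adjusted p = 0.0547) and CDKN1B (0.118) also with DESeq2, and those of CCND2 and CCNE2 passed in all 19 alternatives. The list's count ran from 2 (without either shRNA control library or shNBD1 replicate 1) to 13.

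Genes that license and carry out replication also fell with shNBD1 in 5 of 15 cases and rose in none (33.3% called, median -0.16). CDC6, which loads the replicative helicase, fell by 0.37 ± 0.06 (adjusted p = 0.00349, edgeR) and PCNA, the sliding clamp, by 0.48 ± 0.09 (adjusted p = 0.0052). The call of CDC6 was lost without shRNA control replicate 2, and that of PCNA without either shRNA control library or shNBD1 replicate 1. Without shRNA control replicate 2 the list lost its calls. On the 4 libraries of the arm alone it held 9, where 5281 of all 13306 genes were called.

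Around the checkpoint kinases, 3 of 20 genes fell and none rose (15% called, median -0.18), a count that was 1 without any single library of the arm and 16 on the 4 libraries of the arm alone. The fit on those 4 libraries called 5281 of all 13306 genes. RAD1, part of the clamp that activates ATR, fell from 51.99 and 54.51 CPM to 22.25 and 24.11 CPM, which is -1.20 ± 0.09 on the log2 scale (adjusted p = 3.63e-05, edgeR), and passed in all 19 alternatives. TIPIN, which protects replication forks, fell by 0.30 ± 0.08 (adjusted p = 0.0226) and CCNB2, a mitotic cyclin, by 0.23 ± 0.07 (adjusted p = 0.0377). Both were lost with DESeq2 and without any single library of the arm, and CCNB2 also with no filter on low counts (adjusted p = 0.0631).

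Of 14 tested relatives of BCL2, 1 rose and 1 fell with shNBD1 (14.3% called, median 0.28), a count of 2 that ran from 0 (without shRNA control replicate 1 or shNBD1 replicate 2) to 6. BAX, which opens the mitochondrial outer membrane, fell from 192.5 and 200 CPM to 141 and 141.4 CPM, which is -0.48 ± 0.09 on the log2 scale (adjusted p = 0.00438, edgeR), so BCL2 and its opponent BAX fell together. The call of BAX was lost without shRNA control replicate 1 or shNBD1 replicate 2. BOK, a relative of BAX, rose by 0.85 ± 0.26 (adjusted p = 0.0447) at a mean of 28 counts in the control, and was lost with DESeq2 and without any single library of the arm. Around CARD10, 1 of 14 genes rose and 2 fell (21.4% called, median -0.05), 3 calls that became 1 without any single library of the arm. The NF-kB subunit REL fell by 0.48 ± 0.12 (adjusted p = 0.0227) and the kinase MAP3K7 by 0.26 ± 0.07 (adjusted p = 0.0284). Both were lost with DESeq2 and without any single library of the arm.

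A list of 20 further genes reported as miR-15/16 targets, 18 of them tested, held 2 that rose and 2 that fell with shNBD1 (22.2% called, median 0.02), 4 calls that became 2 without any single library of the arm and 9 on its 4 libraries alone. The fit on those 4 libraries called 5281 of all 13306 genes. FGFR1, a growth factor receptor, rose by 0.61 ± 0.09 (adjusted p = 0.00142, edgeR) and YAP1, the effector of the Hippo pathway, by 0.54 ± 0.12 (adjusted p = 0.0136). CCND2, which is on this list too, and BMI1, a Polycomb protein, at -0.50 ± 0.11 (adjusted p = 0.0114), fell. The calls of YAP1 and BMI1 were lost without any single library of the arm. With the inhibitors the median of these 18 genes was 0.10, with 11 above 0, beside 0.27 and 7 of 8 for the genes described above.

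With the inhibitors no gene of any of these 6 lists was called in the reported edgeR fit. At an unadjusted p under 0.05 there were 10 of 25 G1 and S genes, 2 of 20 checkpoint genes, 3 of 14 BCL2 relatives, 2 of 14 NF-kB genes, 5 of 18 further targets and 4 of 15 replication genes, against 16.4% of all genes. Among the genes of smallest p were CDKN1B at 0.58 ± 0.11 (adjusted p = 0.0803), RAD9A, of the same clamp as RAD1, at 0.55 ± 0.20 (0.222), BAX at -0.42 ± 0.09 (0.0934), RELA, an NF-kB subunit, at 0.35 ± 0.10 (0.159), and CDC25A, the phosphatase that activates CDK2, at 0.53 ± 0.10 (0.0803). CDC25A stood at 48.66 and 52.73 CPM in the control and 65.76 and 80.75 with the inhibitors. DESeq2 called CDC25A, which is on both the G1 and S list and the list of further targets, and 2 BCL2 relatives, BAX among them. With no filter on low counts edgeR called CDC25A (adjusted p = 0.0203), BAX (0.0233) and CDKN1B (0.0265), where it called 179 of 17179 genes. With a replicate block within arms edgeR called these 3 and also RAD9A and RELA, where it called 2525 of all 13306 genes. Over all alternatives the values ran from 0.32 to 0.67 for CDC25A, -0.52 to -0.24 for BAX and 0.445 to 0.68 for CDKN1B. They ran from 0.08 to 0.87 for RAD9A and from 0.12 to 0.50 for RELA. The values of largest size came from fits without inhibitor control replicate 2 or without inhibitor replicate 1, where 1 group has a single library.

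**Figure D4:**
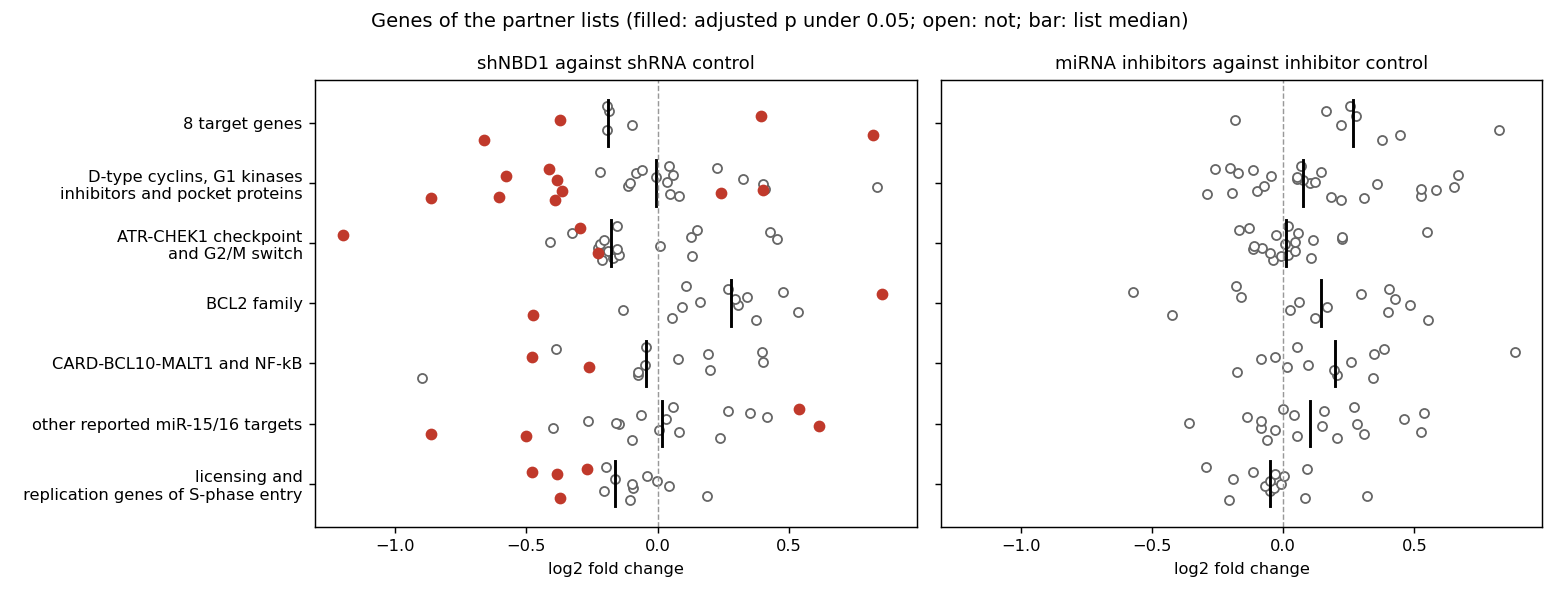
Log2 fold change (horizontal axis) of the tested genes among the 8 targets and 6 partner lists, 2 partner genes not plotted, with shNBD1 (left) and with the inhibitors (right); filled points passed an adjusted p under 0.05, open points did not, and bars are medians of the whole lists. The medians with shNBD1 lie between -0.19 and 0.28, and those with the inhibitors between -0.05 and 0.27.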

How the data were processed

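Ribosome footprints of 8 libraries of 293T cells were analysed. The deposited table of each library gives raw counts of reads for a gene and transcript feature, and features absent from it were set to 0. The submitters' processing notes name cutadapt, Bowtie and GRCh38. Tool versions, the counting step, strand, rRNA filtering and the handling of multiply matching reads are not stated there. Without strand, a gene and an overlapping antisense RNA cannot be told apart. Cycloheximide in the lysis buffer, per the labels, holds ribosomes in place. Without matched RNA libraries, footprints alone do not separate the amount of an mRNA from its translation. Counting errors do not cover amplification.

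The 18037 features were summed to 17179 symbols. Genes passing filterByExpr (minimum count 10, minimum total 15) were scaled by TMM and fitted over all 8 libraries, with 4 groups and 4 residual degrees of freedom, by edgeR 4.0.16's quasi-likelihood test in R 4.3.3 (limma 3.58.1). Benjamini-Hochberg adjustment ran over all 13306 genes in each of 4 comparisons, with a threshold of 0.05. SEs are those implied by the test. Alternatives were other scalings, DESeq2 1.42.0, other filters, fewer libraries, replicate blocks, 1 feature per symbol and the loss of 2 abundant features. The steps were tested on simulated counts. The simulation gave a gene the same spread in every group, so it does not check the test where the arms differ in spread.

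All 8 members are named. Each partner list gave up to 3 called genes of smallest p in each direction per treatment, or its 1 gene of smallest p; some genes that this rule gave are not reported here. The members and lists were chosen with earlier results of these data known. Levels per coding length were planned but not computed, because lengths were not at hand, so levels of different genes are not compared. Coordinates and miRNA sequences are from RefSeq tables for GRCh38.p14, in which all 8 members matched.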

Additional observations from a re-analysis of the deposited data

Results flagged for a closer look

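None of the 8 targets differed between the treatments past the threshold, where 7.44% of all genes did. Of the other genes named here 8 did, by the test of the difference itself. Values are log2 fold change with shNBD1 minus that with the inhibitors, with adjusted p in edgeR's quasi-likelihood test. Apart from SMC4, chosen after the values of the targets had been seen, these genes were named for a small p with shNBD1. The difference uses those same libraries, so the number of these genes cannot be set against the share of all genes. CCND2 differed by -1.17 (-0.86 with shNBD1, 0.31 with the inhibitors, adjusted p = 0.000638) and RAD1 by -1.17 (-1.20 and -0.03, 0.000651), both under all 18 alternatives. CCNE2 differed by -0.79 (-0.61 and 0.18, adjusted p = 0.0081), CCNA2 by -0.61 (-0.39 and 0.22, 0.0119), SMC4 by -0.58 (-0.38 and 0.20, 0.013) and CDC6 by -0.45 (-0.37 and 0.08, 0.0156). CDK4 differed by 0.43 (0.24 and -0.19, adjusted p = 0.0213) and FGFR1 by 0.46 (0.61 and 0.15, 0.0468). CCNE2 lost this without shRNA control replicate 1 or shNBD1 replicate 2, and CCNA2, SMC4, CDC6, CDK4 and FGFR1 without any single library of the shRNA arm. FGFR1 lost it also with DESeq2 (adjusted p = 0.11) and without inhibitor control replicate 1 (0.0825) or inhibitor replicate 1 (0.0725).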

How the results depend on the processing

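Of the 8 genes, edgeR called 4 with shNBD1, 5 between the controls, 0 with the inhibitors and 0 for the difference between the treatments. With 1 library left out these counts ran from 0 to 4, 1 to 5, 0 to 2 and 0 to 2. Between the controls the count was 3 with upper-quartile scaling and 2 with DESeq2 or with genes of a mean of at least 50 counts, a filter that removed BCL2. Without both inhibitor control replicate 1 and inhibitor replicate 2, chosen after seeing the data, it was 1 with the inhibitors, 4 for the difference and 7 between the controls; that fit has 1 library in each inhibitor arm group and takes its spread from the closer shRNA arm, so its calls support nothing.

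Same-numbered libraries deviated together in the inhibitor arm (correlation of replicate differences over genes 0.42) but not in the shRNA arm (0.015), and with 2 numbers this does not show pairing. With a replicate block within arms 5 of the 8 genes were called with the inhibitors (CCND1 0.81, CCND3 0.22, CDK6 0.27, WEE1 0.25, CARD10 0.46), 5 for the difference (BCL2, CCND1, CCND3, WEE1, CHEK1), 5 with shNBD1 and 5 between the controls. In the same order that fit called 2525, 3393, 5009 and 6159 of all 13306 genes. With a replicate block shared by all 8 libraries, added after seeing the data, the counts in the same order were 2, 3, 4 and 5. Over all genes they were 675, 1868, 3408 and 4809.

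Over all genes, 2440 were called with shNBD1, 16 with the inhibitors, 990 for the difference and 3611 between the controls. With 1 library left out these ran from 506 to 3018, 0 to 900, 178 to 1120 and 1083 to 4296. The replicate block within arms gave 5009, 2525, 3393 and 6159, and the shared replicate block 675 with the inhibitors and 1868 for the difference. On the 4 libraries of a comparison alone there were 5281 with shNBD1 and 0 with the inhibitors, where 1161 had an unadjusted p under 0.05; the difference needs all 8 libraries. DESeq2 on all 8 called 118 with the inhibitors. With no filter the inhibitors gave 179, and DESeq2 gave 2389 between the controls. Without both inhibitor control replicate 1 and inhibitor replicate 2 the 4 counts were 5295, 518, 3764 and 5648.

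Directions turned only for values that were not called. With 1 library left out, CCND1 with shNBD1 ran from -0.39 to 0.0046, CCND3 with the inhibitors from -0.057 to 0.47, and between the controls CHEK1 from -0.15 to 0.0485 and CCND3 and CARD10 up to 0.049 and 0.11. CHEK1 between the controls was 0.0051 without inhibitor control replicate 1. Without both inhibitor control replicate 1 and inhibitor replicate 2, CCND3 and CARD10 with the inhibitors were -0.21 and -0.0365, against up to 0.47 and 0.71 with 1 library left out. CCND3 and CDK6 for the difference were then 0.12 and -0.018, against -0.56 and 0.19 at the other end, and CCND3, CARD10 and CHEK1 between the controls -0.30, -0.34 and 0.0051. The cause of these changes was not tested. Depth limits BCL2 and, in the shRNA arm, CCND1. Levels per coding length, an alternative planned without TMM scaling, were not run for want of lengths.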

Other observations

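A host gene of part of the family can be read in these libraries. The hairpins of MIR15B and MIR16-2 lie inside the span of SMC4, a condensin subunit that compacts chromosomes (chromosome 3, 160399650 to 160434953, GRCh38.p14). SMC4 was chosen after the values of the targets had been seen. The shRNA control libraries held 283 and 290.5 CPM and the shNBD1 libraries 219.5 and 221.7, while the inhibitor control libraries held 179.2 and 183.4 and the inhibitor libraries 191.8 and 223.7, each pair from the lower to the higher. It fell with shNBD1 by 0.38 ± 0.08 on the log2 scale (adjusted p = 0.00821, edgeR), a call lost without any single library of that arm. With the inhibitors it was at 0.20 ± 0.08 (adjusted p = 0.248). The shRNA control was above the inhibitor control by 0.66 ± 0.08 (adjusted p = 3e-04, edgeR), which passed in all 19 alternatives. Footprints of SMC4 do not measure the mature miRNAs, which these counts do not hold.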
